A study of Mus musculus with 6 samples.

Results

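The tetraspanin superfamily was measured in 2 populations of cells grown from bone marrow, labelled dendritic and macrophage. Its members were all genes whose symbol is Tspan followed by a number, together with Cd9, Cd37, Cd53, Cd63, Cd81, Cd82, Cd151, Upk1a, Upk1b, Rom1 and Prph2. Of the 19938 genes that had a probe set of their own, 30 were tetraspanins, each read by 1 probe set. RNA was hybridised to 6 Affymetrix Mouse Gene 1.0 arrays, 3 of the dendritic and 3 of the macrophage population. Leg bone marrow of C57B/6 mice had been kept for 6 days in 20 ng/ml recombinant GM-CSF, a growth factor that drives marrow cells toward myeloid fates, and neither population was stimulated further. The labels say neither how the populations were separated nor whether a replicate is its own mouse or culture. The p-values thus cover only the spread among these arrays, which may be technical. If a tetraspanin was among the surface markers used for the separation, its difference would be part of the separation.

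Tetraspanins are small proteins that cross the membrane several times and carry a large extracellular loop with conserved cysteines. They bind each other and partner proteins laterally, and so gather integrins, immunoglobulin superfamily proteins, membrane proteases and receptors into patches of the plasma membrane or of endosomes. In myeloid cells they are known for roles in adhesion, antigen presentation, vesicle sorting and cell fusion. All values below are deposited RMA values on the log2 scale, in which the array median (over all probe sets) was 4.79 to 4.96. Each difference is the mean of the dendritic arrays less that of the macrophage arrays on that scale, with its standard error (SE), from limma over all 19938 genes, and a gene passed at a Benjamini-Hochberg adjusted p under 0.05. There are no detection calls, and RMA compresses the differences of dim probe sets. Precision is limited by there being 3 arrays a population.

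The population labels were first set against marker genes. These lists were chosen with earlier results of these data known, so their counts are no independent check of the labels. All 7 dendritic cell markers, among them Flt3, Zbtb46 and Ccr7, were higher in the dendritic arrays (background 9.98% of all genes). All 5 measured macrophage markers, Csf1r, Adgre1, Mertk, Fcgr1 and Cd14, were lower there (background 11.6%). Of 9 neutrophil markers 1 was lower (background 11.6%) and 8 did not pass. The summed linear level of the 9 ranged from 2123 to 5272 in dendritic and from 2391 to 5924 in macrophage arrays. Replicate 1 was the highest array of both populations for Ly6g, S100a8, S100a9, Ngp, Camp, Ltf and Cxcr2. For Elane and Mpo that held only in the macrophage arrays. None of the measured T cell (4), NK cell (3), mast cell and basophil (5), eosinophil (3), erythroid (1) or fibroblast (5) markers passed in limma (background 21.6% of all genes). Of these 21, 3 had an unadjusted p under 0.05 in limma (Cd2, Gata2 and Siglecf). Among B cell markers 1 of 4 passed, among megakaryocyte and platelet markers 1 of 3 and among osteoclast markers 2 of 4. These were Cd79a, Ppbp, Acp5 and Ctsk, whose values are given below.

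Tetraspanins differed between the populations in both directions. Of the 30 members 14 passed (background 21.6% of all genes), 4 higher in the dendritic population (background 9.98%) and 10 lower (background 11.6%). That is 46.7% of the members. Dendritic and macrophage values were fully apart for these 14 members and overlapped for the other 16 (background without overlap 34.0%). Of the 30 members 13 passed with a difference of at least 2-fold (background 10.3% of all genes). The median difference over the 30 members was -0.018, against 0.034 over all genes. By level, 13 of 18 members with a mean at or over the median of all genes passed, where 37.7% of all genes in that range did, and 1 of 12 dimmer members passed, where 5.5% of all genes did. On bulk arrays fewer cells of a type and less RNA per cell cannot be told apart.

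**Figure D1:**
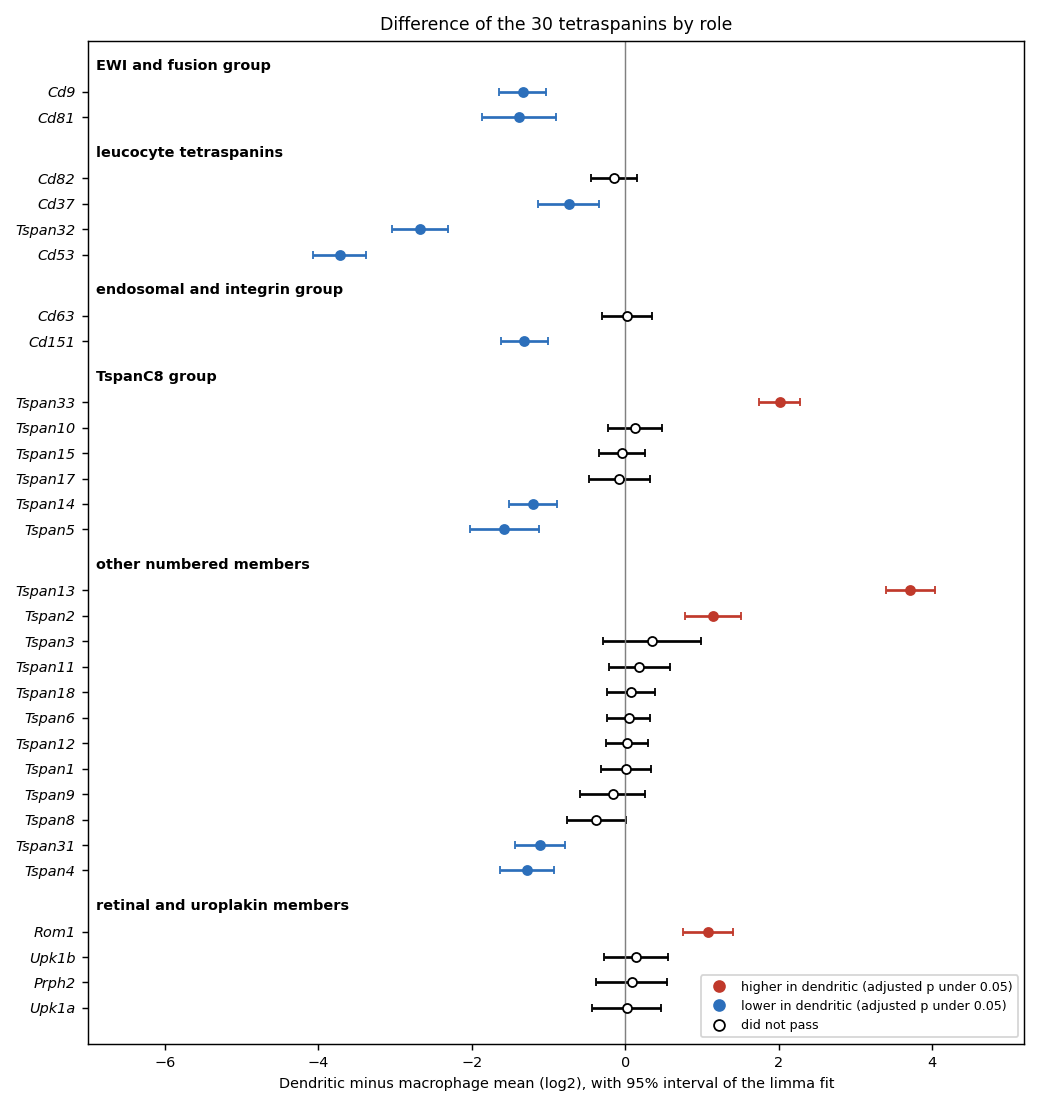
Dendritic minus macrophage difference (log2) of all 30 tetraspanins, grouped by role, with the 95% interval of the limma fit. Filled red points passed and were higher in the dendritic population (4), filled blue points passed and were lower (10), and open points did not pass (16). Tspan13 at 3.71 and Cd53 at -3.72 lie at the ends.

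The member with the largest rise was Tspan13 (probe set 10400023), also called NET-6, a tetraspanin whose partners are less well charted than those of the CD members. It had 9.75, 9.48 and 9.88 in the dendritic arrays, against 5.91, 5.98 and 6.08 in the macrophage arrays. The lowest dendritic array lay more than 3 log2 units above the highest macrophage array. The difference was 3.71 ± 0.14 (SE), or 13.1-fold (limma adjusted p = 5.29e-07).

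Tspan33 (probe set 10536908) had the next largest rise. It belongs to the TspanC8 group, which escorts the protease Adam10 out of the endoplasmic reticulum, and is known from erythroid cells and activated B cells. It had 6.34, 6.32 and 6.44 in dendritic arrays, against 4.31, 4.33 and 4.43 in macrophage arrays. The replicates of each population lay within a narrow band, and the bands were far apart. The macrophage band lay below the array median. Tspan33 was higher by 2.01 ± 0.12 (SE), or 4.04-fold (limma adjusted p = 4.42e-06). Of 4 measured B cell markers, Cd79a was higher by 0.81 at a level of 3.95 in dendritic and 3.14 in macrophage arrays, both below the array median, and Cd79b, Ms4a1 and Pax5 did not pass. The summed linear level of the 4 ranged from 95.8 to 128.0 in dendritic and from 82.5 to 103.1 in macrophage arrays, and their part in the Tspan33 difference was not tested.

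The other 2 rises were smaller, and here too the macrophage values lay below or near the array median. Tspan2 (probe set 10494821), best known from oligodendrocytes and neurons, had 5.19, 5.37 and 5.75 in dendritic arrays, against 4.28, 4.21 and 4.39 in macrophage arrays. It was higher by 1.14 ± 0.16 (SE; limma adjusted p = 0.000836). Rom1 (probe set 10465833), which forms the rim of photoreceptor discs together with Prph2, had 5.93, 5.72 and 6.04 in dendritic arrays, against 4.90, 4.91 and 4.65 in macrophage arrays. It was higher by 1.08 ± 0.14 (SE; limma adjusted p = 0.000572). In both genes all dendritic arrays stood above all macrophage arrays. Prph2, the partner of Rom1, did not pass and averaged 5.17 ± 0.41 in dendritic and 5.09 ± 0.15 in macrophage arrays (SD, n = 3 each), a difference of 0.086 with a 95% interval from -0.38 to 0.55. The uroplakins Upk1a and Upk1b, which form the plaques of the bladder lining, differed by 0.020 and 0.14 and did not pass.

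**Figure D2:**
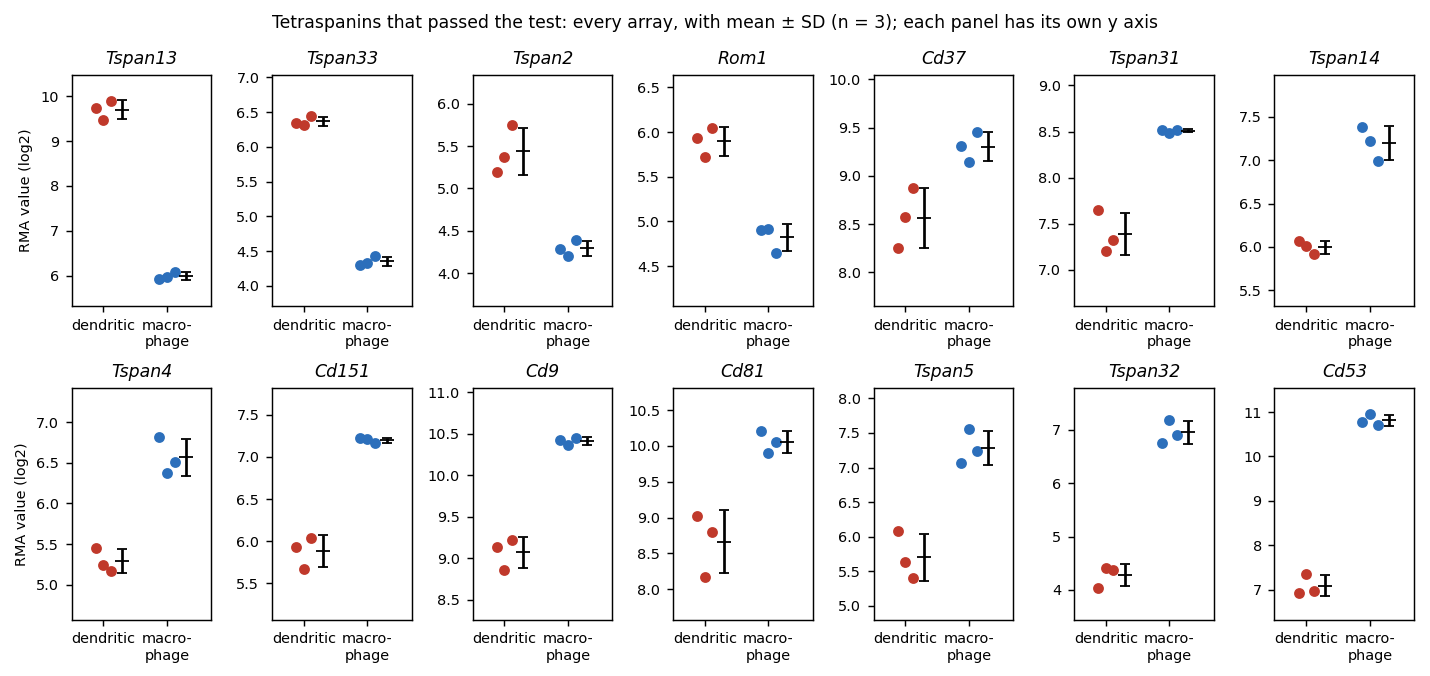
RMA values (log2) of the 14 tetraspanins that passed, 1 panel per gene with its own y axis. Red points are the 3 dendritic arrays and blue points the 3 macrophage arrays, and the black bar is the mean ± SD (n = 3). In no panel do the populations overlap.

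Of 5 tetraspanins characteristic of leucocytes, 3 were lower in the dendritic population (background 11.6% of all genes). Tspan33, described above, was higher (background 9.98%), and Cd82 did not pass. Cd53 (probe set 10501063), found on nearly all leucocytes, had 6.93, 7.36 and 6.98 in dendritic arrays, against 10.79, 10.94 and 10.70 in macrophage arrays. It was among the brighter genes of the macrophage arrays and was 13.2-fold lower in the dendritic ones, with a difference of -3.72 ± 0.15 (SE; limma adjusted p = 6.87e-07). Tspan32 (probe set 10559248), also called Tssc6 or Phemx, is restricted to blood cells and is known for restraining T cell growth and for stabilising platelet thrombi. It had 4.04, 4.41 and 4.37 in dendritic arrays, below the array median, against 6.76, 7.19 and 6.91 in macrophage arrays. The difference was -2.68 ± 0.16 (SE), or 6.40-fold lower (limma adjusted p = 5.46e-06).

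Cd37 (probe set 10563178), which is prominent on B cells and binds the beta-glucan receptor dectin-1 (Clec7a), differed least among the members that passed. It had 8.25, 8.57 and 8.87 in dendritic arrays, against 9.31, 9.15 and 9.45 in macrophage arrays. The highest dendritic array came within 0.3 of the lowest macrophage array. Its difference of -0.74 ± 0.18 (SE) passed (limma adjusted p = 0.0146), but not without macrophage replicate 3 (-0.67, adjusted p = 0.0614). Clec7a itself differed by -2.61 ± 0.20 (SE; limma adjusted p = 2.6e-05). Cd82 (Kai1), a suppressor of metastasis that is also made in myeloid cells, averaged 7.41 ± 0.16 in dendritic and 7.56 ± 0.05 in macrophage arrays (SD, n = 3 each). Its difference of -0.15 did not pass, and the 95% interval from -0.44 to 0.15 leaves out a change as large as that of Cd53.

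The promoter windows of the 2 members with the largest rise and the 2 with the largest fall are shown because these genes stand at the ends of the family. Each is the 250 bases before the RefSeq gene start of the build GRCm38.p6, read 5′ to 3′ along the gene. Capitals mark the GC box (GGGCGG), the CCAAT box (CCAAT) and the core of the PU.1 site (GAGGAA), each searched on both strands. The windows are chr12:36042479-36042728 on the minus strand for Tspan13, chr6:29693964-29694213 on the plus strand for Tspan33, chr3:106790150-106790399 on the minus strand for Cd53 and chr7:143004796-143005045 on the plus strand for Tspan32.
Tspan13: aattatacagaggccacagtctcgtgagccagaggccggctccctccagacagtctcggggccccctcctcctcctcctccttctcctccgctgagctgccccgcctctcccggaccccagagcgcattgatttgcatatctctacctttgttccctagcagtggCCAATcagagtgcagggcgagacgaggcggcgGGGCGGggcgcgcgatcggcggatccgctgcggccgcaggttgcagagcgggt
Tspan33: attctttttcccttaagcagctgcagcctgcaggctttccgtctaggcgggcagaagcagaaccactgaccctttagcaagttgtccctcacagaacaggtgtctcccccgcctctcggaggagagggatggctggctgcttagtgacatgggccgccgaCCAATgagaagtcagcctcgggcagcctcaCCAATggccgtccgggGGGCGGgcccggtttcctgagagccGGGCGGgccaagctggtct
Cd53: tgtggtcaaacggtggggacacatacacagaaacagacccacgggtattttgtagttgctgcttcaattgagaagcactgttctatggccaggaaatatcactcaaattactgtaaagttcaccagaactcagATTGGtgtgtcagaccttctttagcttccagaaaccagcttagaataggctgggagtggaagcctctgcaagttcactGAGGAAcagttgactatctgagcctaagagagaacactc
Tspan32: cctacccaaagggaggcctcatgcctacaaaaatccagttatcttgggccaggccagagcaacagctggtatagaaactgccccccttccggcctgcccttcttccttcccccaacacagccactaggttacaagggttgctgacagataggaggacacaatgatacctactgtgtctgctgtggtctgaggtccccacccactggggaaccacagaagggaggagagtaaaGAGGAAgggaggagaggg
The Tspan13 window held 21 CpG dinucleotides and 66.0% G and C, and that of Tspan33 held 13 and 62.4%. The Cd53 window held 2 CpG dinucleotides and 45.2% G and C, and that of Tspan32 held 1 and 55.6%. Over 32851 windows of this length the medians were 6 CpG dinucleotides and 52.4%. A GC box was in the windows of Tspan13 and Tspan33, a CCAAT box in those of Tspan13, Tspan33 and, on the opposite strand, Cd53, and the PU.1 core in those of Cd53 and Tspan32. These short motifs are common: the GC box was in 32.7% of all windows, the CCAAT box in 33.8% and the PU.1 core in 23.3%. The E-box (CACGTG) was in 6.02% and the AP-1 motif (TGANTCA) in 6.75% of all windows, and neither was in the 4 shown. A first search for the E-box, the AP-1 motif, a longer PU.1 motif and motifs of NF-kB and of the ETS-IRF composite had matched none of the 4 windows, and the GC box, the CCAAT box and the PU.1 core were chosen after that, with these sequences in view. What they share is thus no evidence of a pattern. A match is a description of the letters and not a sign of binding.

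Cd9 and Cd81 were both lower in the dendritic population. These related tetraspanins bind the immunoglobulin superfamily proteins Igsf8 (EWI-2) and Ptgfrn (EWI-F), and in mice their loss makes macrophages fuse into giant cells. Cd9 (probe set 10548030) had 9.14, 8.86 and 9.22 in dendritic arrays, against 10.42, 10.36 and 10.45 in macrophage arrays. Its difference was -1.34 ± 0.13 (SE), or 2.53-fold lower (limma adjusted p = 0.000112). Cd81 (probe set 10559261) had 9.02, 8.17 and 8.80 in dendritic arrays, against 10.21, 9.91 and 10.05 in macrophage arrays. Dendritic replicate 2 was the lowest array for both genes. The difference of Cd81 was -1.39 ± 0.21 (SE), or 2.62-fold lower (limma adjusted p = 0.00137). Both stayed well above the array median in the dendritic arrays.

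Markers of 2 other cell types that use these proteins were read beside them. Of 3 measured megakaryocyte and platelet markers Itga2b and Gp9 did not pass, and Ppbp was lower by 3.28. Of 4 osteoclast markers Acp5 (-3.53) and Ctsk (-2.78) were lower, and Calcr and Ocstamp did not pass. The summed linear level of the 3 megakaryocyte markers ranged from 76.5 to 117.7 in dendritic and from 223.2 to 671.1 in macrophage arrays. In the macrophage arrays that sum mostly follows Ppbp, which averaged 8.11 there, against 5.22 for Itga2b and 4.92 for Gp9. For the 4 osteoclast markers the summed level ranged from 103.5 to 147.9 in dendritic and from 589.6 to 920.4 in macrophage arrays. There it mostly follows Acp5, which averaged 8.93, against 7.20 for Ctsk, 4.12 for Calcr and 5.29 for Ocstamp. The part of these markers in the differences of Cd9 and Cd81 was not tested.

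Cd63 did not pass, while Cd151 was lower in the dendritic population. Cd63 (probe set 10367436), the tetraspanin of late endosomes, lysosomes and exosomes, had 10.69, 10.27 and 10.41 in dendritic arrays, against 10.49, 10.45 and 10.37 in macrophage arrays. The populations overlapped, and the difference of 0.021 ± 0.14 (SE) had a 95% interval from -0.30 to 0.34 (limma adjusted p = 0.960). Cd151 (probe set 10558948), which holds laminin-binding integrins, had 5.94, 5.67 and 6.04 in dendritic arrays, against 7.22, 7.21 and 7.17 in macrophage arrays. It was lower by 2.49-fold, with a difference of -1.32 ± 0.13 (SE; limma adjusted p = 0.000123). The span of Cd151 overlaps the long noncoding RNA gene Gm10575 in the RefSeq table, whose own probe set was lower too (-0.55, limma adjusted p = 0.0221).

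The TspanC8 members, which bind Adam10 and steer it to different substrates, had 1 of 6 higher (background 9.98%), 2 lower (background 11.6%) and 3 that did not pass. Tspan5 (probe set 10496494) had 6.08, 5.63 and 5.40 in dendritic arrays, against 7.06, 7.55 and 7.23 in macrophage arrays. It differed by -1.58 ± 0.20 (SE), or 2.99-fold lower (limma adjusted p = 0.000435). Tspan14 (probe set 10419073) had 6.07, 6.01 and 5.92 in dendritic arrays, against 7.39, 7.22 and 6.99 in macrophage arrays. It differed by -1.20 ± 0.14 (SE), or 2.30-fold lower (limma adjusted p = 0.000276). Tspan33, described above, was the higher one. Tspan17 had 6.06, 6.15 and 6.27 in dendritic arrays, against 6.45, 6.41 and 5.85 in macrophage arrays, and overlapped. Tspan10, known from the pigment epithelium of the retina, and Tspan15, which directs Adam10 to N-cadherin, differed by 0.13 and -0.044 near or under the array median, and neither passed.

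The other numbered members included 2 further falls. Tspan4 (probe set 10558961), a protein of migrasomes, the vesicles that migrating cells leave on their retraction fibres, had 5.46, 5.24 and 5.17 in dendritic arrays, against 6.82, 6.38 and 6.51 in macrophage arrays. It differed by -1.28 ± 0.15 (SE; limma adjusted p = 0.000338). Tspan31 (probe set 10373027), first known as a gene amplified in human sarcoma, had 7.65, 7.20 and 7.32 in dendritic arrays, against 8.51, 8.49 and 8.52 in macrophage arrays. The macrophage arrays agreed within 0.1, and the difference was -1.12 ± 0.14 (SE; limma adjusted p = 0.000486). In the RefSeq table the span of Tspan4 overlaps the coding gene Chid1, which differed by -0.97 (limma adjusted p = 0.0028), and that of Tspan31 overlaps Cdk4, which differed by -0.53 and did not pass (adjusted p = 0.0575). The other measured overlapping genes did not pass: R74862 at Cd81 (-0.027, limma adjusted p = 0.941) and Gm10804 at Cd82 (0.14, limma adjusted p = 0.682). Whether probes of the 2 genes of a pair share sequence was not tested, here or for Cd151.

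The remaining 8 numbered members did not pass. Tspan3 (probe set 10593842), widely expressed, had 9.29, 9.03 and 8.54 in dendritic arrays, against 7.98, 8.89 and 8.95 in macrophage arrays. Macrophage replicate 1 stood nearly 1 log2 unit below the other macrophage arrays, and the interval of the difference was wide, from -0.29 to 0.99. Tspan8, a tetraspanin of epithelia and carcinomas, had 3.43, 3.40 and 3.39 in dendritic arrays, against 3.94, 3.41 and 4.01 in macrophage arrays. Its difference of -0.38 did not pass (limma adjusted p = 0.170), and it passed without macrophage replicate 2 (-0.57, adjusted p = 0.0343). Tspan1, Tspan6, Tspan9 (a platelet tetraspanin), Tspan11, Tspan12 (a co-receptor of Fzd4 for norrin) and Tspan18 (of endothelium) differed by -0.17 to 0.18. Over all 16 members that did not pass, the differences lay between -0.38 and 0.35, none had an unadjusted p under 0.05, and every 95% interval lay within 1 log2 unit of 0 (within 0.5 for 10 of them).

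**Figure D3:**
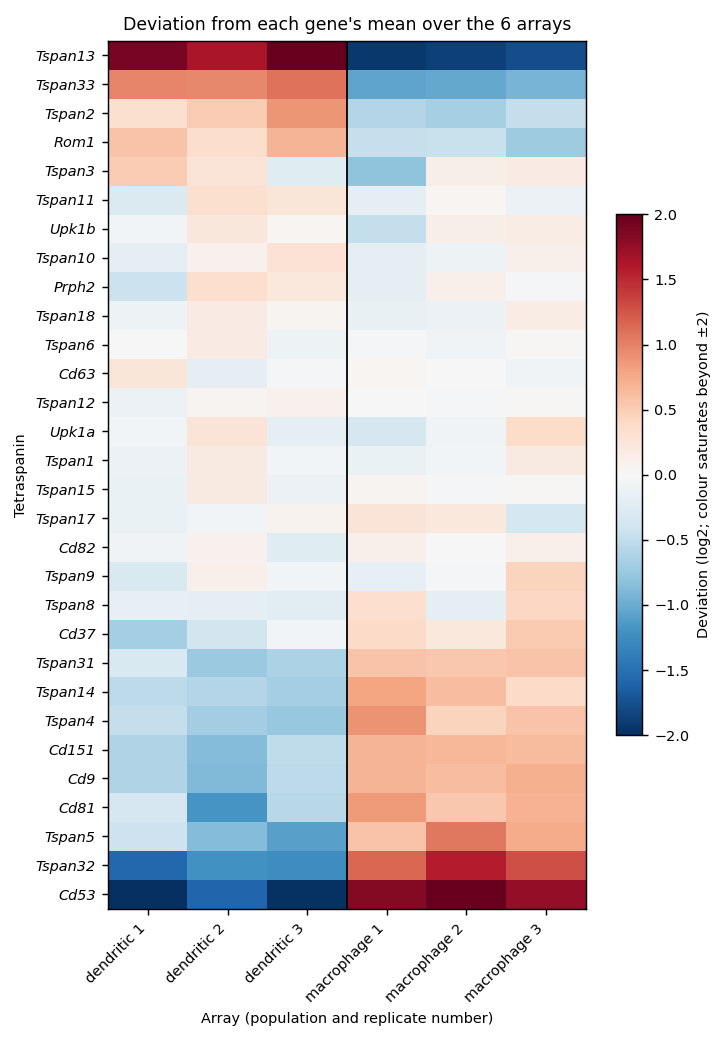
Deviation of each of the 30 tetraspanins from its own mean over the 6 arrays (log2), with genes in order of their difference and the 3 dendritic arrays left of the 3 macrophage arrays. The 4 top rows and the 10 bottom rows change colour at the line between the populations, and the 16 rows between them hold smaller or mixed deviations.

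Several tetraspanin genes lie side by side, and neighbours were compared. In the RefSeq table of GRCm38.p6, Tspan32 and Cd81 are adjacent coding genes on chromosome 7, and both were lower (-2.68 and -1.39). Cd151 and Tspan4, also on chromosome 7, are separated by 1 coding gene, the RNA polymerase subunit Polr2l, and both were lower (-1.32 and -1.28), while Polr2l differed by -0.28 and did not pass. Tspan18 and Cd82, adjacent on chromosome 2, did not pass (0.078 and -0.15), nor did Tspan11 and Tspan9, adjacent on chromosome 6 (0.18 and -0.17). In each of these 4 pairs either both members passed or neither did, where 14 of all 30 members passed. The share of such alike neighbours over all genes was not counted, and the pairs were named after their values were seen. Whether position had a part in this was not tested.

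The partners of tetraspanins were read from 6 lists written by function. Of 58 measured partner genes 28 passed (48.3%, background 21.6%), 15 higher and 13 lower, with a median difference of 0.0091. This background is not matched for level. When only genes at or over the median of level were tested, 25 of 41 partners passed, and 4047 of all 9969 genes did. Among the immunoglobulin superfamily partners 1 of 4 (25.0%, near the background) was higher, Igsf3 (0.71 ± 0.14, limma adjusted p = 0.00587), and 3 did not pass. Igsf8, the partner of Cd9 and Cd81, had 5.94, 5.72 and 6.32 in dendritic arrays, against 6.44, 6.28 and 6.53 in macrophage arrays. Its difference of -0.42 did not pass (limma adjusted p = 0.129), but passed when the replicate number was fitted as a block (limma adjusted p = 0.0400) and without dendritic replicate 3 (-0.59, adjusted p = 0.0362). Ptgfrn had 3.71, 4.21 and 4.62 in dendritic arrays, against 6.42, 4.62 and 4.67 in macrophage arrays. Macrophage replicate 1 alone stood high, and the difference of -1.06 did not pass (limma adjusted p = 0.148).

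Integrins that tetraspanins bind changed in both directions, with 2 of 9 higher and 3 lower (55.6%, background 21.6%). Both subunits of LFA-1, a leucocyte integrin, were lower, as Cd53 was: Itgb2 differed by -3.38 ± 0.15 and Itgal by -2.80 ± 0.13 (SE). The alpha subunits Itga4 (2.19 ± 0.35) and Itga6 (1.44 ± 0.26) were higher, while Itga3 (0.23) and Itga7 (-0.15), which like them pair with beta 1 integrin, did not pass. Itgb7, the other beta subunit that pairs with Itga4, was lower (-1.42 ± 0.16 (SE), limma adjusted p = 0.000191). Itgb1 itself had 9.74, 9.64 and 9.48 in dendritic arrays, against 9.33, 9.31 and 9.22 in macrophage arrays, and did not pass (0.33, limma adjusted p = 0.106). It passed after quantile normalization was applied again (0.38, adjusted p = 0.0454).

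All 3 membrane proteases of the lists were lower (background 11.6%). Mmp14, a collagenase of the cell surface, differed by -2.32 ± 0.22 and the TNF-alpha converting enzyme Adam17 by -1.73 ± 0.20 (SE). Adam10, the partner of the TspanC8 group, had 6.88, 6.20 and 5.84 in dendritic arrays, against 7.72, 7.12 and 6.97 in macrophage arrays. In both populations replicate 1 was the highest. Its difference of -0.96 ± 0.28 (SE) passed narrowly (limma adjusted p = 0.0373), and not when all probe sets were tested (adjusted p = 0.0982) or without dendritic replicate 2 (0.120) or 3 (0.128), or without macrophage replicate 1 (0.0999) or 2 (0.0667). Of 12 Adam10 substrates 7 passed (58.3%, background 21.6%). Higher were 4 of them, led by the chemokine Cx3cl1 (3.56 ± 0.20) and the costimulatory ligand Icosl (1.15 ± 0.17). Another 3 were lower, led by the lipid receptor Trem2 (-3.03 ± 0.17) and Notch1 (-2.86 ± 0.17).

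Among 19 measured receptors and ligands 6 were higher and 3 lower (47.4%, background 21.6%). The stem cell factor receptor Kit (2.77 ± 0.45) and the tight junction protein Cldn1 (1.66 ± 0.21) led the rises, and the scavenger receptor Cd36 (-3.33 ± 0.35) and podoplanin, Pdpn (-2.71 ± 0.13), led the falls. Kit varied widely among the dendritic arrays, at 8.60, 7.07 and 6.50, against 4.34, 4.67 and 4.85 in macrophage arrays. Fzd4, the receptor with which Tspan12 acts, was dim in both populations and did not pass (-0.13). Of 11 sorting and membrane adaptors 2 were higher and 1 was lower (27.3%, near the background of 21.6%). The lower one, Sdcbp (syntenin), which links Cd63 to the exosome machinery, had 8.66, 8.41 and 8.08 in dendritic arrays, against 10.43, 10.29 and 10.19 in macrophage arrays. It differed by -1.92 ± 0.17 (SE; limma adjusted p = 4.5e-05), while Cd63 did not pass. Ap3b1, a subunit of the adaptor that sorts Cd63 to lysosomes, was higher by 1.01 ± 0.21, and the lipid kinase Pi4k2b by 0.77 ± 0.19 (SE). The call of Pi4k2b was lost without macrophage replicate 2 (limma adjusted p = 0.0603) or without macrophage replicate 3 (0.0683).

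**Figure D4:**
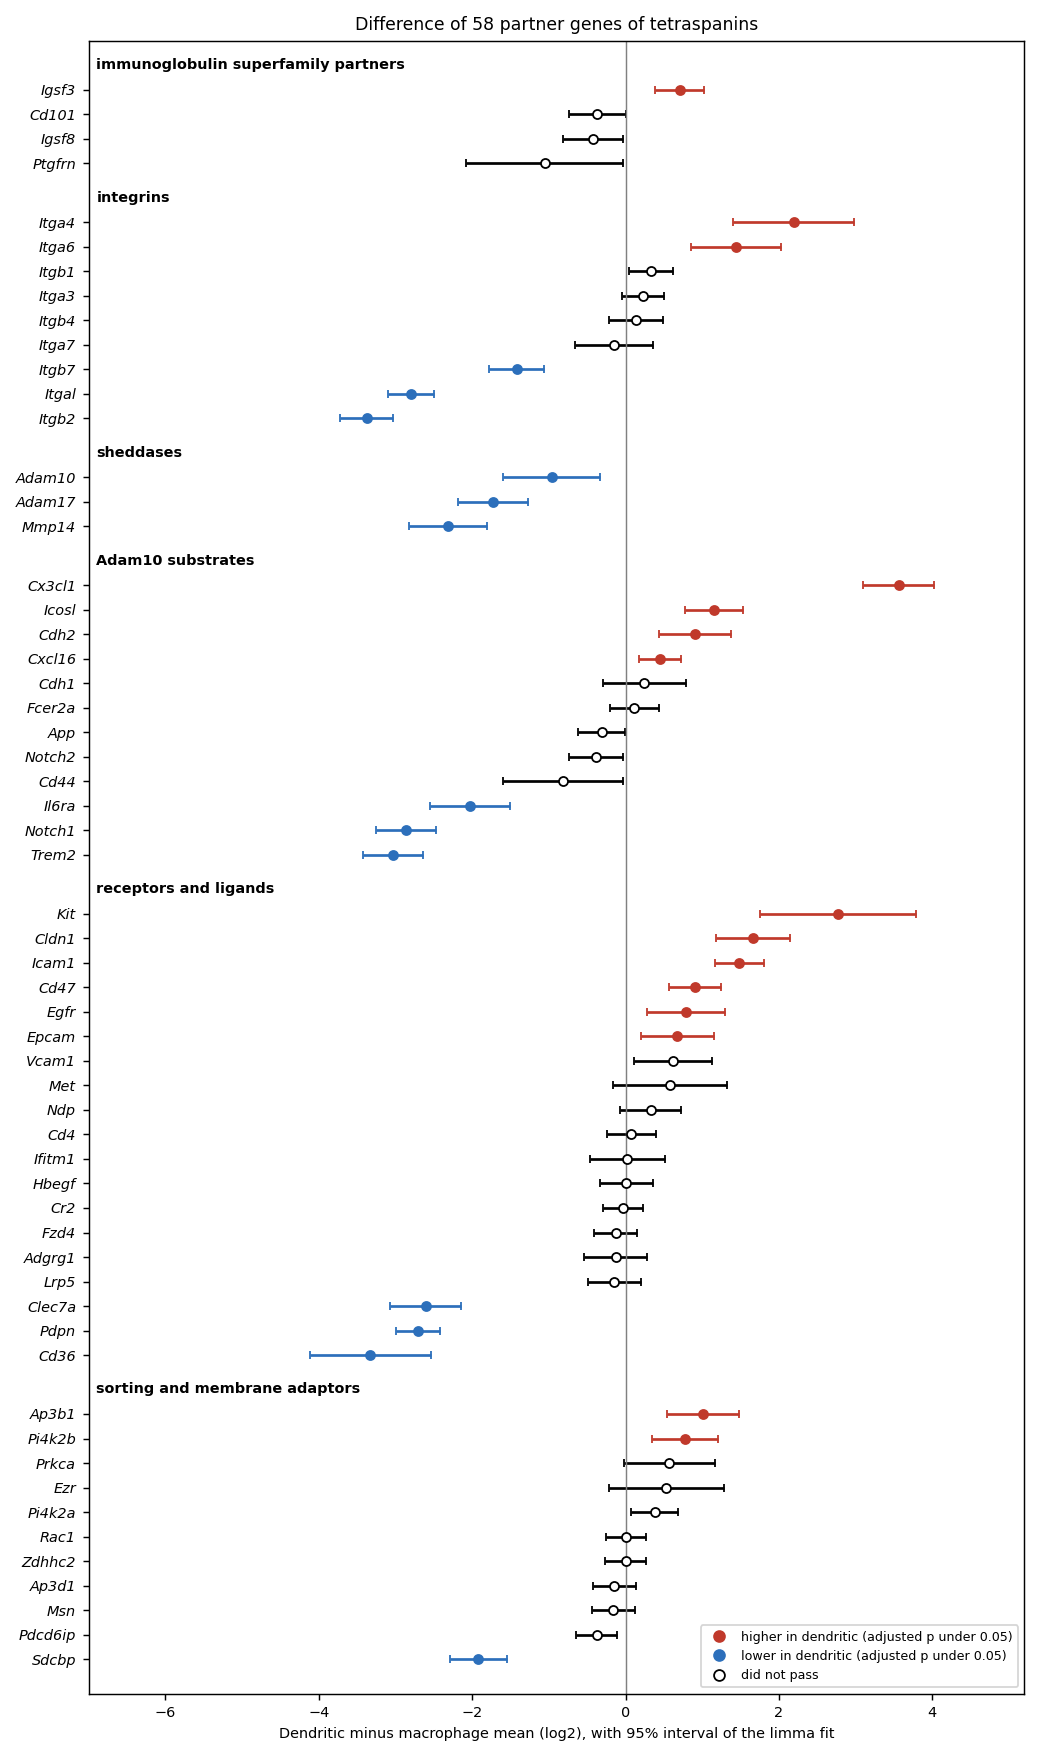
Dendritic minus macrophage difference (log2) of 58 partner genes in 6 lists, with the 95% interval of the limma fit. Filled red points passed and were higher in the dendritic population (15), filled blue points passed and were lower (13), and open points did not pass (30). All 3 sheddases lie left of 0.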

How the data were processed

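The authors deposited log2 values of 35556 probe sets on 6 arrays. Per the submitters' processing notes they used RMA in R 3.0.2; the probe set definition, filters and genome build are not given there. Biotinylated cRNA came from 6 ug total RNA, per the labels' protocols. Names come from the platform annotation: 21789 probe sets held 1 symbol, 1621 several, and 12146 are unnamed here. For a gene with several probe sets the one with the highest mean over 6 arrays was used. Tspan7 was not analysed here.

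Groups come from the cell type label. The fit was limma 3.58.1 (lmFit, eBayes, 2-sided) in R 4.3.3 over all 19938 genes, with no filter. Tables were made in pandas 2.3.3 (Python 3.11.15) and figures in matplotlib 3.10.9. Tested on simulated data of 19938 genes, the fit of this comparison found 1 of 67 genes changed by 0.5, 42 of 67 changed by 1 and 63 of 66 changed by 2 (log2), with 4 false calls among 110. Far fewer genes were changed in the simulation than passed in the data (4312). The adjusted p depends on that share, so these rates do not carry over to the data. Arrays with the same number in their titles deviated together from the population means, with r = 0.385, 0.147 and 0.272 for numbers 1 to 3. By a limit of 0.1 the numbers count as pairs, but unmatched arrays of numbers 2 and 3 also passed it, at 0.155 and 0.128. The limit thus does not single out the same-numbered arrays, and the labels do not say what the numbers mark. Every printed value comes from the unpaired fit unless the block is named. The members, lists, motifs and tests were chosen with earlier results of these data known. All members are named; of each partner list up to 2 genes that passed with the largest difference in each direction, plus Adam10, Igsf8, Ptgfrn, Itgb1 and Fzd4. Itga3, Itga7, Itgb7 and Clec7a were added after their values were seen. Overlapping and neighbouring genes and single markers were named after their values were seen. Promoter windows come from RefSeq, GRCm38.p6, for 28 of the 30 members.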

Additional observations from a re-analysis of the deposited data

How the results depend on the processing

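Over 15 alternatives, 13 of the 14 members that passed did so in every one that tested them, and Cd37 is the exception given above. The 15 are not independent checks. Each member has 1 probe set, so averaging a gene's probe sets cannot change its value. Filters on level, the replicate block and the test over all probe sets keep each difference and change only its test. Of the 16 that did not pass, 15 passed in none, and Tspan8 is the exception. The count of members that passed was 14 in every setting with all arrays except the filter at the median of level, which leaves Tspan2 untested (13). It was 13 to 15 when 1 array was left out (4 higher, 9 to 11 lower). For partners it was 25 to 31 with all arrays and 23 to 27 with 1 left out, and for all genes 3510 to 5901 and 3311 to 4625. The replicate number as a block changed no call of a member, and gave 31 partners and 5207 genes (Igsf8 above). Quantile normalization again moved the median difference of all genes by -0.021 and 75th percentile centring by 0.054.

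Members near 0 changed sign, always without passing. With array weights Cd63 was at -0.041 and Tspan3 at -0.0011. With quantile normalization again Tspan1 was at -0.044, Tspan12 at -0.022 and Upk1a at -0.0016. With 75th percentile centring Tspan15 was at 0.010. With 1 array left out the range was -0.094 to 0.11 for Cd63, -0.064 to 0.32 for Prph2, -0.081 to 0.097 for Tspan1, -0.018 to 0.085 for Tspan12, -0.14 to 0.010 for Tspan15, -0.27 to 0.028 for Tspan17, -0.027 to 0.11 for Tspan6, -0.29 to 0.014 for Tspan9, -0.14 to 0.21 for Upk1a and -0.058 to 0.25 for Upk1b. The cause was not tested. Where a setting leaves 2 arrays in a population, the fit pools the spread. Dim probe sets near the array median limit what can be seen.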
